A study of Orestias ascotanensis with 42 samples.

Results

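The miR-196 microRNAs were followed through 42 small RNA libraries of Orestias ascotanensis, a killifish of the Ascotan salt pan in the high Andes of Chile. The family was taken as every name that begins with miR-196, with or without a letter and an arm suffix, once the species prefix had been removed. It came to 11 of the 1342 names in the count tables, and 8 of these had at least 1 read among 672 names with a read. Vertebrate genomes carry miR-196 genes in the posterior part of Hox clusters, next to the Hox genes that pattern the rear of the body axis. In mouse the miRNA directs cleavage of the Hoxb8 transcript, and in zebrafish it has been tied to pectoral fin and axial patterning. In adult vertebrates the expression of Hox genes often keeps the positional pattern laid down in the embryo.

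Wild adult fish were netted in July (winter) and in January (summer), 7 fish on each occasion, and muscle, skin and gills were taken from every fish. The 6 groups of 7 libraries were therefore muscle summer, muscle winter, skin summer, skin winter, gills summer and gills winter. All fish were killed with an overdose of tricaine, the tissues went into RNAlater at the site, and the labels give no other treatment. Summer and winter fish were different animals, season and collection date were the same split, and the season was read from the treatment label because the titles of all 42 libraries carry the word summer.

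Depth was 5261380 to 17238289 reads in muscle, 3523943 to 12506714 in skin and 215954 to 11279115 in gills, counted with 1 name per set of names that rest on the same reads. The lowest depths were those of gills summer 4 and gills winter 2. The tissue labels were checked against marker miRNAs. The skeletal muscle markers (miR-133a, miR-133b, miR-133c, miR-206, miR-499 and miR-1-5p) summed to 10064 to 33244 RPM (reads scaled to a common library total, as defined with the methods) in muscle, 7582 to 16313 in skin and 755 to 1702 in gills. The epithelial markers (the miR-200 group, miR-203 and miR-205) summed to 152 to 498 RPM in muscle, 11582 to 52459 in skin and 22306 to 100278 in gills. The muscle marker sums of skin and muscle libraries thus overlapped in RPM, and those of gills lay below both. Under TMM, the scaling of the tests below, these sums did not overlap, with 8107 to 27812 CPM in muscle and 2121 to 5647 in skin. The miR-10 family, which lies in Hox clusters too, held 83.9 to 92.3% of reads in muscle, 42.5 to 73.7% in skin and 10.9 to 49.6% in gills, and all other miRNAs shared the remainder.

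The names of the family were not equal in weight. miR-196a held 114825 reads over all libraries and miR-196a-5p held 114802. These names rest on the same reads, since they never differed by more than 12 reads in a library, and miR-196a stands for both from here on. It is the major name of the family. The name miR-196b followed with 20084 reads, all from the entries of 5 cichlid species, which had equal counts. The zebrafish, fugu and Tetraodon entries called miR-196b held 90 reads each. The name miR-196b-5p held 4461 reads, all from the Atlantic cod entry, while the Atlantic salmon entry of that name held 90. Entries of 1 name thus differed in their counts, and miR-196b and miR-196b-5p are counted here as separate names. The zebrafish and catfish name miR-196d held 286 reads and the zebrafish name miR-196c held 66. Names of the opposite arm, 3p, were rare: miR-196a-4-3p had 69 reads, miR-196a-3-3p had 7, and miR-196a-1-3p, miR-196a-2-3p and miR-196b-3p had 0. A read that matches several names adds to each of them, and whether reads under a minor name were also counted under miR-196a cannot be told from count tables.

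miR-196a was among the more abundant miRNAs of muscle and skin and ranked lower in gills. In muscle it had 120 (lowest), 173 (median) and 326 (highest) RPM in summer and 108, 217 and 391 in winter. In skin it had 751, 1191 and 1299 RPM in summer and 416, 967 and 1166 in winter. In gills it had 9.92, 16.8 and 27.8 RPM in summer and 7.41, 21.2 and 38.3 in winter. The 3 tissues did not overlap on this scale, with skin highest and gills lowest, while the seasons overlapped within each tissue. By abundance miR-196a was the 49th to 74th of the read profiles in muscle, the 55th to 75th in skin and the 147th to 227th in gills. Over all libraries 457 read profiles had a read. Its share of all reads averaged 0.0208 ± 0.00808% in muscle, 0.0969 ± 0.027% in skin and 0.00197 ± 0.000894% in gills (SD, n = 14 libraries each).

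**Figure D1:**
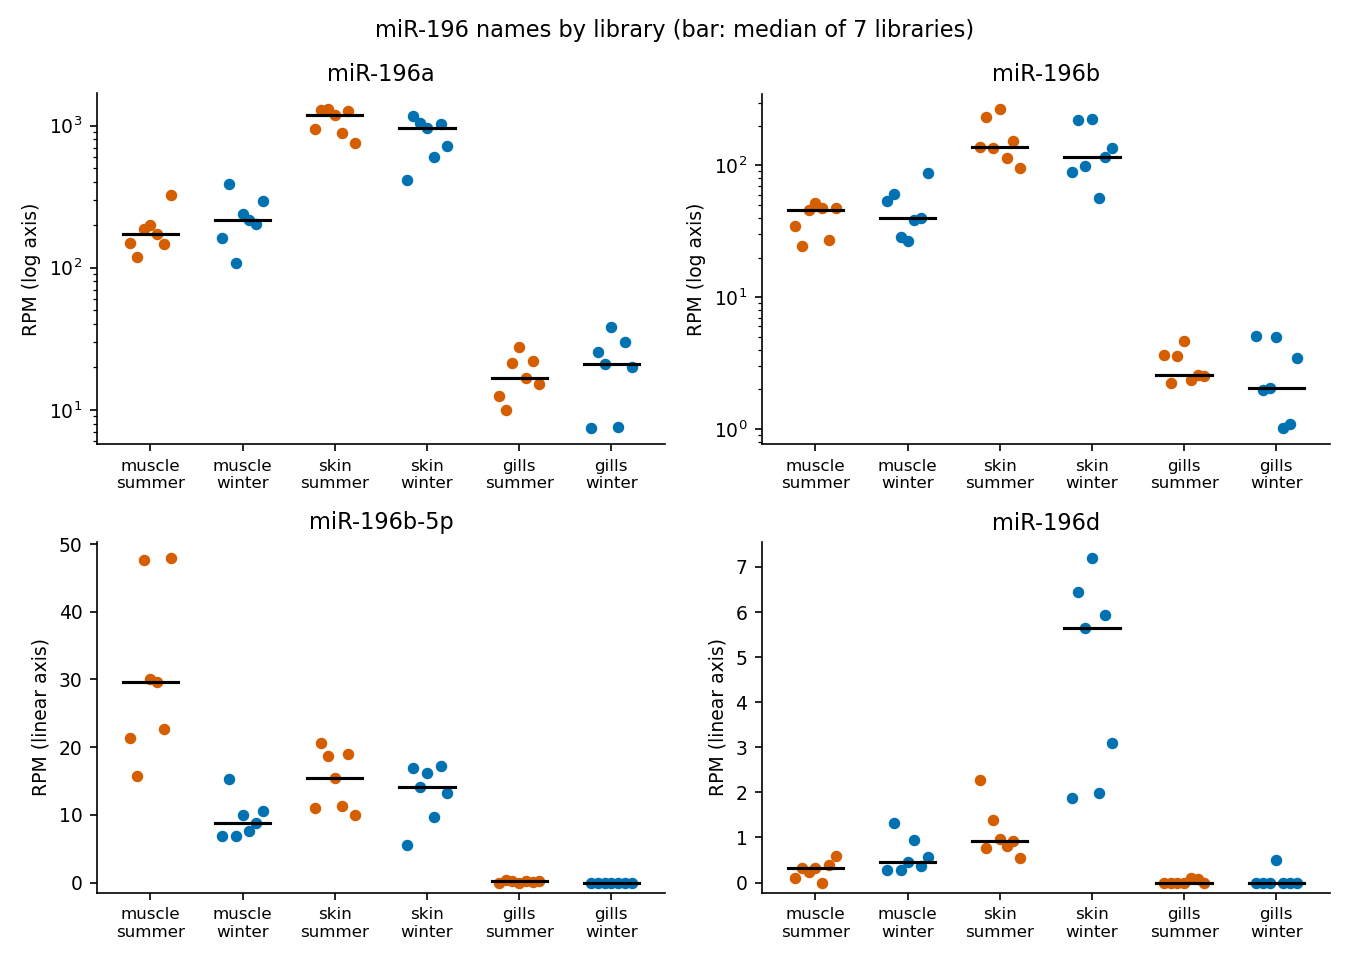
RPM of 4 miR-196 names in each library, by tissue and season; points are libraries, bars are medians of 7, and the axis is logarithmic for miR-196a and miR-196b and linear for the others. miR-196a spans 7.41 to 1299 RPM with gaps between tissues, miR-196b-5p stands high in summer muscle and miR-196d in winter skin.

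Both the muscle and the skin stood far above the gills. Scaled by TMM, which sets the libraries on a common level over most miRNAs, miR-196a was higher in muscle than in gills by 6.36 ± 0.24 on the log2 scale (SE, edgeR quasi-likelihood test, adjusted p = 6.6e-26). Skin exceeded gills by 6.42 ± 0.25 (adjusted p = 1.9e-25), the smallest p of the 525 names tested. Scaled to totals alone, summed over all names so that reads under several names counted more than once, the differences were 2.95 and 5.38. Both still passed. Pooled over libraries and scaled to totals, muscle held 11.7 times the gill level of miR-196a (95% counting interval 11.1 to 12.5), and skin held 54.4 times that level (51.3 to 57.7). The tissues are mixtures of cells, so that fewer cells expressing a miRNA and less of it per cell cannot be told apart.

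The minor names were also more abundant in muscle and skin than in gills, by differing amounts. miR-196b was higher in muscle by 6.87 ± 0.29 and in skin by 6.47 ± 0.28 on the log2 scale under TMM, and by 3.45 and 5.42 with totals. Its median was 43.2 RPM in muscle, 135 in skin and 2.55 in gills, and no gill library (highest 5.09) reached the lowest muscle library (24.7). miR-196b-5p had 3233 reads in the 14 muscle libraries, 1219 in skin and 9 in gills. It was at 0 in all 7 winter gill libraries, whose median depth was 1986522 reads against 8658171 in summer gills. Pooled and scaled to totals it was 166 times the gill level in muscle (95% counting interval 87.2 to 363) and 103 times in skin (54.3 to 227), and under TMM these ratios were 1290 (679 to 2824) and 185 (96.9 to 405). miR-196d had 61 reads in muscle, 222 in skin and 3 in gills, or 9.39 times the gill level in muscle (3.06 to 46.8) and 56.5 times in skin (19.1 to 276) with totals, and 73.0 (23.8 to 364) and 101 (34.1 to 493) times under TMM. In RPM the muscle and gill libraries of miR-196d overlapped, with 1 muscle library at 0 and the highest gill library at 0.503. miR-196c had 21, 43 and 2 reads in muscle, skin and gills, and miR-196a-4-3p had 20, 48 and 1.

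Of the 11 names 5 entered the test over all libraries, miR-196a-5p among them, and the other 6 were too rare. All 5 were called higher in muscle than in gills, where 37.5% of all names tested were called higher and 76.6% were called in either direction. All 5 were likewise called higher in skin than in gills, against 25.7% of all names called higher and 54.5% called in either direction. These counts are not independent, since miR-196a and miR-196a-5p rest on the same reads and the other names may share some. A name also entered the test through the tissues where it was high. With totals in place of TMM, 48 names were higher and 442 lower in muscle against gills (197 and 205 under TMM) and the median over all names was -3.49 in place of -0.10. In skin against gills 72 were higher and 366 lower (135 and 151 under TMM), and the median was -1.07 in place of -0.00. The miR-196 names stayed on the higher side under each of the scalings tried.

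Between muscle and skin the outcome depended on the scaling. Under TMM, miR-196a averaged 227 ± 74.3 CPM in muscle and 235 ± 37.3 CPM in skin (SD, n = 14 each), a log2 difference of -0.06 ± 0.19 (adjusted p = 0.77, 95% interval -0.44 to 0.32) which was 0.01 with RLE scaling. Scaled to totals it was lower in muscle by 2.43 on the log2 scale, at -2.43 (adjusted p = 3.6e-13). The median over all names was -0.11 under TMM and -2.39 with totals, so that miR-196a lay near the median of the names in both cases. miR-196b differed by 0.40 ± 0.21 (adjusted p = 0.089) under TMM, and by 0.46 (adjusted p = 0.033) with the fish as a block, while with totals it turned to -1.96. miR-196d differed by -0.27 ± 0.32 (adjusted p = 0.45), and by -2.57 with totals. miR-196b-5p alone of these 4 was called under TMM without the fish as a block, higher in muscle by 2.46 ± 0.21 (edgeR adjusted p = 3.2e-13). Of all names 67% were called and 32.4% were called higher. With totals the miR-196b-5p difference was 0.05 (edgeR adjusted p = 0.83). With totals 43 names were higher and 433 lower in muscle, against 170 and 182 under TMM.

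**Figure D2:**
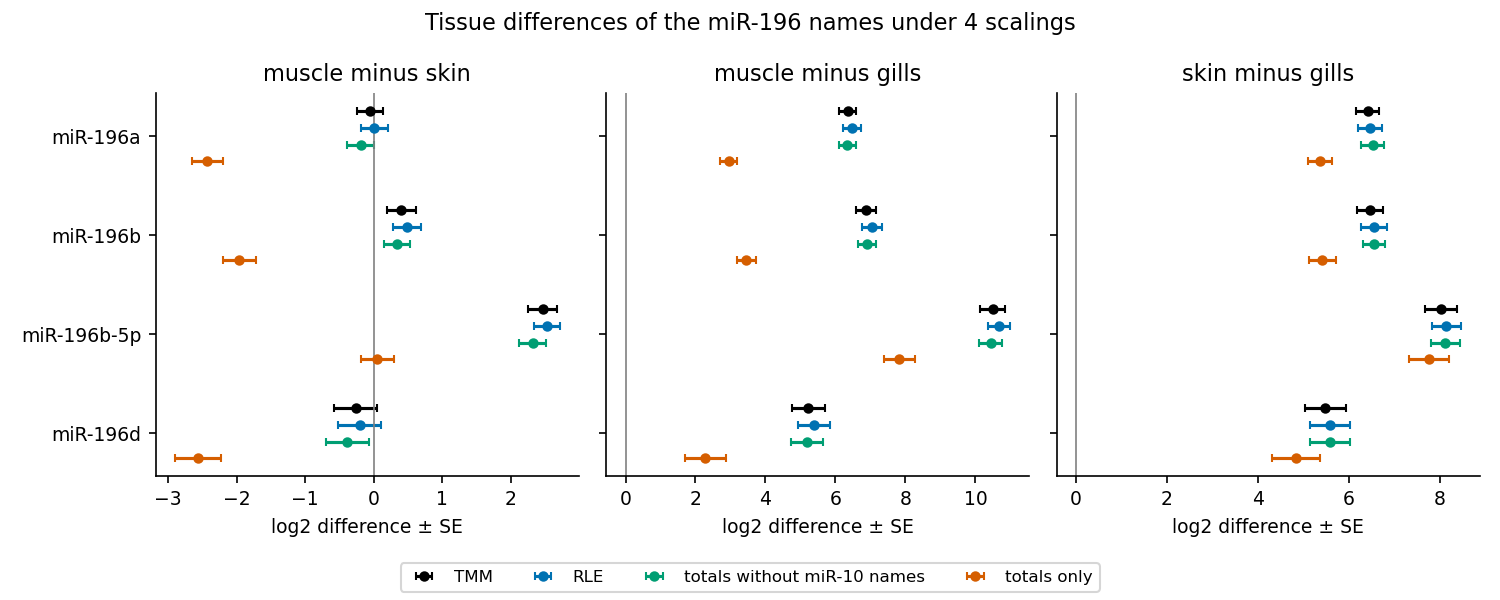
Log2 difference between tissues (± SE) for 4 miR-196 names, with libraries scaled by TMM, by RLE, by totals without the miR-10 names, or by totals only. All points lie above 0 against gills, whereas muscle minus skin moves from -0.06 to -2.43 for miR-196a and from 2.46 to 0.05 for miR-196b-5p when totals alone are used.

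A ratio of names within a library does not depend on how libraries are scaled. In reads per 100 reads of miR-196a, miR-196b-5p stood at 13.2 (lowest), 15.01 (median) and 25.5 (highest) in summer muscle and at 3.52, 4.23 and 6.33 in winter muscle. In skin it stood at 1.15, 1.34 and 1.60 in summer and at 1.32, 1.60 and 1.84 in winter. Every muscle library of either season lay above every skin library, and summer muscle lay above winter muscle without overlap. The mean log2 ratio was 2.50 higher in muscle than in skin, and the muscle value was the higher in 14 of 14 fish (exact test by sign changes, two-sided p = 0.000122, the smallest this number of fish allows, adjusted p = 0.00326 over 30 ratio comparisons). In gills 9 reads of miR-196b-5p stood against 1175 of miR-196a, 0.766 per 100.

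The ratio of miR-196b to miR-196a spanned overlapping ranges in muscle and skin. It stood at 14.5 to 27.3 reads per 100 of miR-196a in summer muscle and 11.3 to 33.6 in winter muscle, against 10.4 to 22.3 in summer skin and 9.46 to 23.1 in winter skin. The ratio was higher in muscle in 12 of 14 fish, by 0.53 on the log2 scale (exact permutation test, p = 0.0114, adjusted p = 0.031). With at least 100 reads of miR-196a required, the same 14 fish entered, and only comparisons that use gills lost libraries. The adjusted p of the same test was then 0.0851. The call thus depended on the gill comparisons that shared the adjustment. Pooled, gills had 15.1 reads of miR-196b per 100 of miR-196a, muscle 20.8 and skin 16.3. The ratio of miR-196b differed by 0.50 between muscle and gills (adjusted p = 0.119, exact permutation test, 11 fish) and by -0.12 between skin and gills (adjusted p = 0.643). For miR-196d muscle minus skin was -0.18 (adjusted p = 0.661, exact permutation test, higher in 6 of 14 fish).

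**Figure D3:**
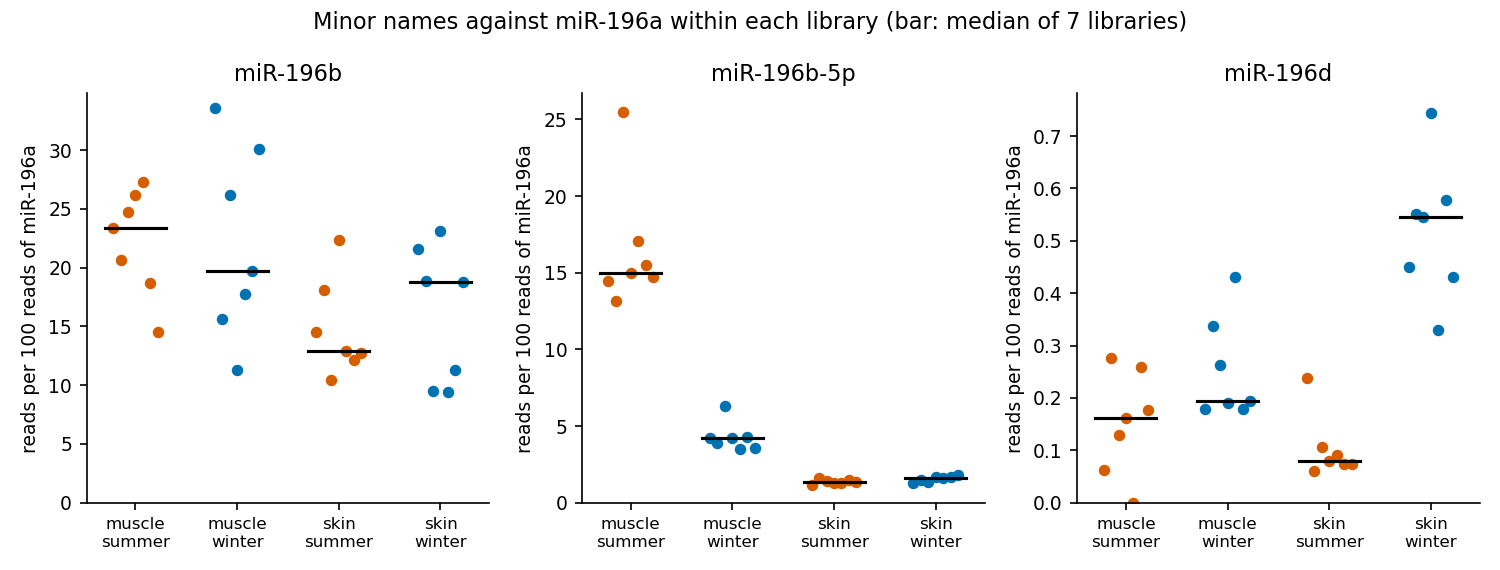
Reads of miR-196b, miR-196b-5p and miR-196d per 100 reads of miR-196a in each muscle and skin library, on linear axes from 0, with bars at the median of 7. For miR-196b-5p summer muscle (13.2 to 25.5) clears winter muscle (3.52 to 6.33) and all skin libraries; for miR-196d winter skin (0.329 to 0.744) clears summer skin (0.0597 to 0.238).

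Season separated miR-196b-5p in muscle. Its level was 15.8 (lowest), 29.6 (median) and 47.9 (highest) RPM in summer muscle, against 6.84, 8.75 and 15.3 in winter muscle, from 119 to 826 and 48 to 163 reads per library. All summer libraries lay above all winter libraries, narrowly so at the edge. It rose by 2.20 ± 0.27 on the log2 scale (95% interval 1.63 to 2.77, edgeR adjusted p = 4.3e-05), the second smallest p of 427 names, where 13.8% of names were called and 6.56% were called higher. The rise was called under all 8 alternatives, from 1.73 with totals to 2.27, and with each library left out. Within libraries the ratio to miR-196a was higher in summer by 1.92 on the log2 scale (exact permutation test, p = 0.000583, the smallest that 7 against 7 libraries allow, adjusted p = 0.00326). With totals the split of calls in muscle was 17 higher and 75 lower, against 28 and 31 under TMM. Of all names 59 were called in muscle, and 38 without muscle summer 2 or 39 without muscle winter 7.

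In skin the same name did not pass. miR-196b-5p had 10.03 (lowest), 15.5 (median) and 20.6 (highest) RPM in summer skin and 5.48, 14.1 and 17.2 in winter skin, ranges that overlapped over most of their length. The change was -0.08 ± 0.23 (adjusted p = 0.96, 95% interval -0.56 to 0.40) under TMM and 0.25 with totals. Its log2 ratio to miR-196a changed by -0.19 to -0.18 under 5 alternative settings and did not pass (exact permutation tests, adjusted p 0.083 to 0.20). The seasonal change of miR-196b-5p was larger in muscle than in skin by 2.49 ± 0.40 on the log2 scale (95% interval 1.68 to 3.31, edgeR test of the interaction, adjusted p = 9.5e-05). It had the second smallest p of 525 names, of which 2.29% were called, all of them higher. With totals it was 1.48 (adjusted p = 0.041), and 5 names were then higher and 88 lower, where TMM gave 12 and 0. Without the fish of summer replicate 3 the count of 12 was 5, and without that of summer replicate 2 it was 6, with miR-196b-5p still called in both.

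Season also separated most libraries of miR-196d in skin. Its level was 0.55 (lowest), 0.923 (median) and 2.27 (highest) RPM in summer skin, against 1.87, 5.66 and 7.19 in winter skin, from 3 to 12 and 7 to 41 reads per library. The groups overlapped between 1.87 and 2.27 RPM, and 4 of the 7 winter libraries lay at 5.66 RPM or above. It fell by 2.30 ± 0.36 on the log2 scale in summer skin (95% interval -3.07 to -1.53, edgeR adjusted p = 0.0025). It was 1 of 3 names called in skin, 0.629% of the 477 tested, and 1 of the 0.419% called lower, and had the second smallest p. The name passed the count filter mainly through the winter libraries, where it was high. Its place among the tested names, and the fits that leave out 1 library, are therefore a description and not separate support. The fall was called under all 8 alternatives (adjusted p up to 0.032), of which the fit with the batch number as a block called 8 names and DESeq2 called 7. It was called in the 11 fits without 1 library in which the name was abundant enough to be tested, and it was not tested without winter replicate 2, 3 or 7. Without skin winter 2 the number of names called in skin was 1. As a ratio to miR-196a the groups did not overlap, and summer skin was lower by 2.35 on the log2 scale, at -2.35 (exact permutation test, p = 0.000583, adjusted p = 0.00326).

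In muscle miR-196d was too rare for the test across names, with 25 reads in summer and 36 in winter. Its ratio to miR-196a differed by -0.86 (exact permutation test, p = 0.0664, adjusted p = 0.133). The difference in its seasonal change between muscle and skin was 2.00 ± 0.62 (adjusted p = 0.089), which did not pass.

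**Figure D4:**
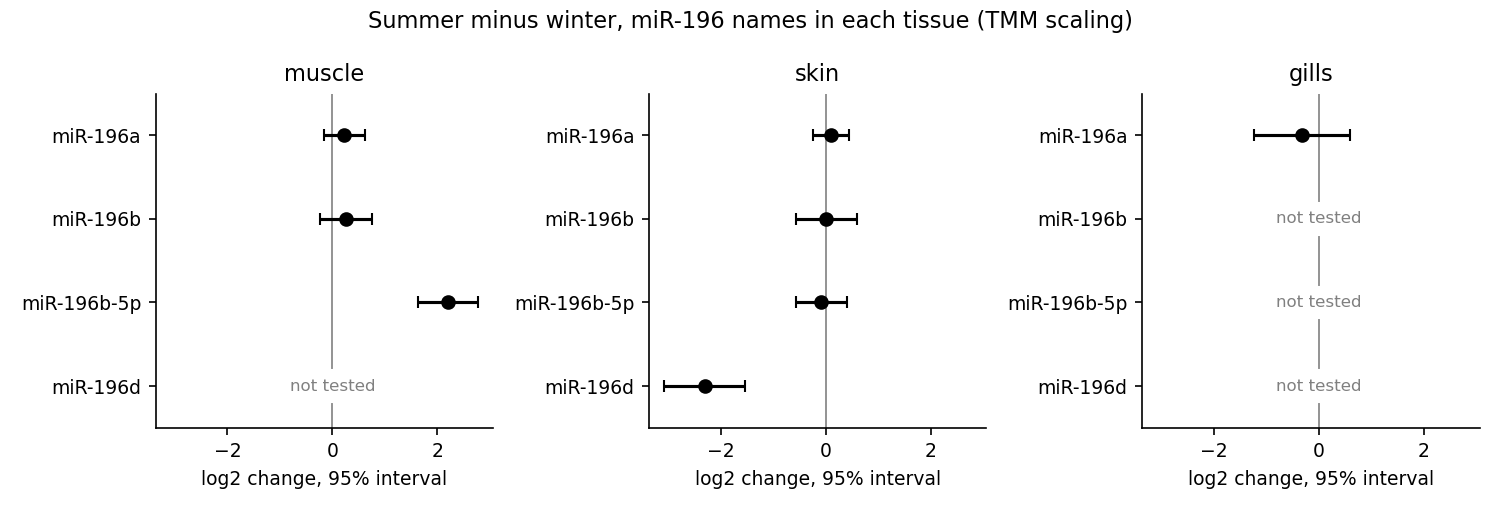
Log2 change from summer minus winter with its 95% interval in each tissue, from separate edgeR fits under TMM; names below the count filter are marked as not tested. miR-196b-5p in muscle (2.20) and miR-196d in skin (-2.30) are the changes whose intervals stand clear of 0.

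The major name did not move with season beyond the spread between fish. miR-196a changed by 0.23 ± 0.19 in muscle (edgeR adjusted p = 0.43), which turned to -0.29 with totals and -0.17 with totals without the miR-10 names. It changed by 0.11 ± 0.16 in skin (adjusted p = 0.95) and by -0.32 ± 0.43 in gills (adjusted p = 1.00), where 0.217% of names were called, and by 0.01 in gills with the batch number as a block. The differences in its seasonal change between tissues were 0.31 ± 0.38 for muscle minus skin, 0.60 ± 0.40 for muscle minus gills, where 1.9% of names were called, and 0.29 ± 0.40 for skin minus gills, where 0.762% were called, and none passed; the first turned to -0.70 with totals. miR-196b changed by 0.26 ± 0.23 in muscle, turning to -0.25 with totals, and by 0.01 ± 0.28 in skin. Its ratio to miR-196a changed by 0.07 in muscle and -0.08 in skin (exact permutation tests, adjusted p = 0.779 and 0.778).

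Cell type markers were set beside the muscle result. Of all 427 names tested between summer and winter muscle, 59 were called (13.8%), 31 of them lower. Among the skeletal muscle markers 0 of 5 tested were called, and their summed TMM CPM was 18117 to 26445 in summer and 8107 to 27812 in winter. Of the epithelial markers 0 of 7 were called, with sums of 169 to 437 CPM in summer muscle and 211 to 581 in winter muscle. The white blood cell markers summed to 165 to 517 CPM in summer muscle and 235 to 839 in winter muscle, and 1 of 4, miR-142, was called lower (-1.92). Of the red blood cell markers 1 of 2, miR-451, was called lower (-0.62), with sums of 112 to 262 CPM in summer and 130 to 231 CPM in winter. The part of these cells in the miR-196b-5p result was not tested. In skin 0 of the 6 muscle, 7 epithelial, 4 white blood cell and 2 red blood cell markers were called between seasons, nor was the pigment cell marker miR-204 (-0.46). These counts lie near the share over all 477 names tested in skin, of which 0.629% were called.

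The miR-10 family, also of the Hox clusters, was mostly higher in muscle and skin than in gills under TMM. Unlike miR-196a, the miR-10 family was also higher in muscle than in skin under that scaling. Of its 10 names with enough reads, several of which rest on the same reads, 10 were called higher in muscle than in gills (median 4.49). In skin against gills 9 were higher and 1 lower (median 2.23), and in muscle against skin 10 were higher (median 2.37). Of all names, 37.5%, 25.7% and 32.4% were called higher in these 3 comparisons, in that order. With totals the miR-10 counts were 8 higher and 2 lower, 7 and 1, and 5 and 5, and their median of muscle minus skin was -0.03. No miR-10 name was called between seasons in muscle, skin or gills under TMM, where 13.8%, 0.629% and 0.217% of all names were called. Their medians were 0.43, -0.44 and 0.59, and 1 was called higher in muscle with totals. The seasonal change was called larger in muscle than in skin for 2 of the 10 names under TMM (median 0.99), where 2.29% of all names were called.

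Outside the family, the read profiles whose TMM log2 CPM ran most like that of miR-196a over the 42 libraries were miR-133-5p (Pearson r = 0.915), miR-133a (0.899), miR-130a-3p (0.899), miR-1-5p (0.898) and miR-130 (0.895), out of 312 profiles. miR-1-5p had only 390 reads over all libraries. It averaged -3.02 log2 CPM in gills, close to the -3.51 of miR-196b-5p in winter gills at 0 reads. miR-130a-3p and miR-130 had near-equal means, 8.18 and 8.12 in muscle, and may not be separate miRNAs. All points share the tissue, the depth and the scaling of their library, so the correlations describe the tissue order. Within muscle r was -0.30 for miR-133-5p, 0.22 for miR-133a and 0.38 for miR-130a-3p, and within skin it was 0.04, -0.38 and 0.10. The muscle miRNA miR-133a averaged 13.7 log2 CPM in muscle, 10.9 in skin and 6.68 in gills, a difference of 2.81 between muscle and skin where miR-196a differed by -0.06. In skin the skeletal muscle markers summed to 2121 to 5647 TMM CPM, against 98.8 to 200 in gills, and the part of muscle cells in the skin level of miR-196a was not tested.

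**Figure D5:**
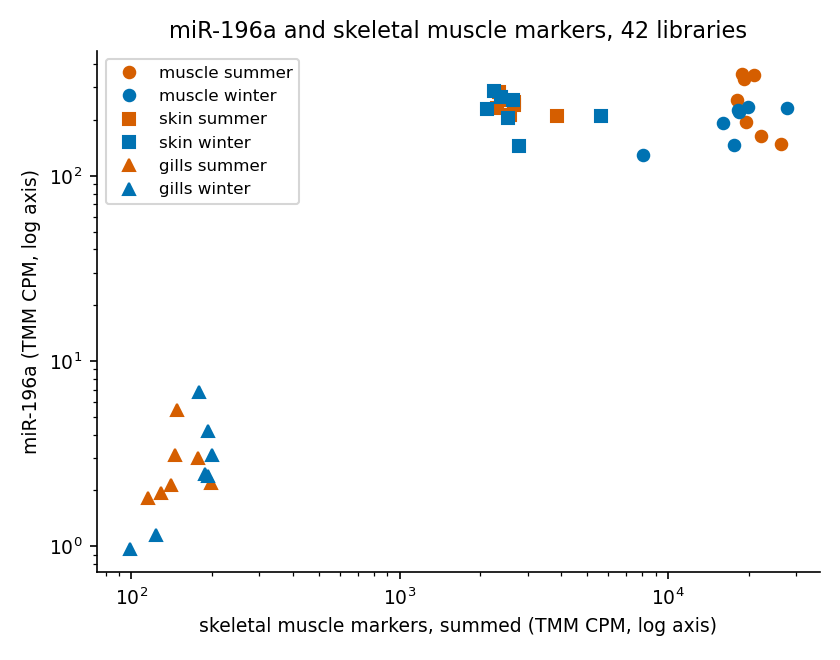
TMM CPM of miR-196a against the summed TMM CPM of the skeletal muscle markers in 42 libraries, both axes logarithmic; symbols are tissues and colours are seasons. Gills lie low on both axes, while muscle (129 to 352 CPM of miR-196a) and skin (144 to 288 CPM) share a level of miR-196a at different marker sums.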

How the data were processed

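The deposited tables give raw read counts per mature miRNA and precursor, per the file headers, with CPM values scaled by the authors to the sum over entries, left out of all tests. The columns are those a miRDeep2 quantifier run writes. No source used here gives the alignment settings or the miRNA release. No row lacked a name and no column of another series was present. The counts of gills winter 1 came with 3599 entries and those of every other library with 3528. The 3527 distinct entries present in all libraries were used. Each name took the highest count among its entries in a library. Names whose counts matched within 5% in every library with at least 20 reads formed 1 read profile. That rule split miR-196a from miR-196a-5p on 1 gill library, gills winter 5, where miR-196a had 30 reads, and they were treated as the same reads. RPM is the count scaled to the sum with 1 name per profile, expressed on the scale of CPM. Reads carry no molecular identifiers, so counting intervals (95%, exact) cover counting error only, and a count of 0 allows up to 3 reads.

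The counts went into edgeR 4.0.16 under R 4.3.3 (TMM, minimum count 10, minimum total 15, quasi-likelihood, Benjamini-Hochberg adjusted p under 0.05 over all names tested). Tissues and interactions were fitted over all 42 libraries in 6 groups, and seasons within the 14 libraries of a tissue. Totals in edgeR, with or without the miR-10 names, were sums over all names, whereas totals for pooled reads took 1 name per profile. Ratios took 0.5 added to both counts in libraries with at least 20 reads of miR-196a, and two-sided exact permutation tests (scipy 1.17.1), with adjustment over 30 comparisons. The ratios of miR-196b-5p, miR-196d, miR-196c and miR-196a-4-3p to miR-196a in gills rest on the added 0.5 and are given as pooled reads only. These gill comparisons still counted among the 30 over which p was adjusted. Tissues of the same fish are paired by the labels. A batch label from 1 to 7 pairs the collections, though the fish differ. Over names, deviations from group means correlated between tissues of a fish with medians of 0.04 to 0.13, and between same-batch libraries with medians of 0.09 in muscle, 0.69 in skin and 0.54 in gills. Each block was an alternative, beside DESeq2 1.42.0, other scalings, no filter, summed entries and 1 name per profile. Leaving out each library or fish was added after the data were seen. Among 126 within-group pairs of libraries 0 held the same counts, chi-square divided by its degrees of freedom was at least 46.1, and each library counted as 1 sample. The tests were also run on simulated data. The members, the marker and miR-10 lists and the rules were chosen with earlier results of these data known. The 5 profiles most like miR-196a were named by Pearson r of log2 CPM (prior count 2). For miR-1 the 5p arm alone was used.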

Additional observations from a re-analysis of the deposited data

Results flagged for a closer look

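The seasonal change of miR-196b-5p differed between tissues: it was larger in muscle than in skin by 2.49 on the log2 scale by a test of the difference itself. Among 32 groups of 7 examined for a single far library, 4 held one, and chance gives about 1 in 20. Muscle summer 7 had 326 RPM of miR-196a, where the next library of its group had 199.96. Muscle summer 3 had 25.5 reads of miR-196b-5p per 100 of miR-196a (next 17.1), and muscle winter 3 had 6.33 (next 4.30). Both carry batch number 3 but are different fish. Skin summer 1 had 0.238 reads of miR-196d per 100 of miR-196a (next 0.107), from 12 reads.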

How the results depend on the processing

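Of the results for single names and their ratios, 261 values under other settings kept direction and stayed either called or uncalled. Another 15 changed direction, 5 became called and 2 were no longer called. Mean RPM of miR-196a moved by at least its SD in 5 cases. The miR-196a difference of muscle minus skin was 0.0076 with RLE and with DESeq2 and -2.43 with totals, and the cause was not tested. miR-196b, muscle minus skin, was 0.48 (adjusted p = 0.039) with RLE, 0.48 (0.031) with DESeq2, 0.46 (0.033) with the replicate block and -1.96 with totals. With totals miR-196b-5p gave 0.0537 and miR-196d -2.57. Season, with totals and with totals without miR-10, was -0.29 and -0.17 for miR-196a in muscle and -0.25 and -0.13 for miR-196b. The seasonal difference between muscle and skin was then -0.70 and -0.33 for miR-196a and -0.57 and -0.22 for miR-196b. miR-196a in gills was 0.0132 with the replicate block. miR-196b in skin was -0.0105 with summed entries, and miR-196b-5p in skin was 0.25 with totals. The ratio of miR-196b to miR-196a was 0.0195 for skin minus gills with no replicate block, and 0.53 for muscle minus skin (adjusted p = 0.0851) with at least 100 reads. Sign changes within batch pairs kept both seasonal ratio calls (adjusted p = 0.0426). Mean RPM of miR-196a became 60.8 in muscle, 329 in skin and 8.02 in gills over all names, and 1825 and 2389 in muscle and skin without miR-10.

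Leaving out 1 library or fish gave -0.48 to 0.12 for miR-196a between seasons in gills, -0.16 to 0.22 for miR-196b in skin, -0.18 to 0.00057 for miR-196b-5p in skin, 0.13 to 0.54 for miR-196b between muscle and skin (called in 1 of 14), and 1.64 to 2.36 for the miR-196d difference in seasonal change (called in 2 of 14). Counts of names called moved by over 1.5 times in places. With 1 name per profile fewer names were tested, so a lower count there need not be a lower share called. Muscle season gave 59 of 427 names, but 92 with totals, 136 without miR-10 and 33 of 235 with 1 name per profile. Skin season gave 3, but 7 with DESeq2 and 8 with the replicate block, and gill season gave 1, and 2 to 6 under 7 alternatives. Skin minus gills gave 286 of 525 names, but 438 with totals and 168 of 311 with 1 name per profile. That setting gave 238 of 311 for muscle minus gills (402 of 525) and 204 of 311 for muscle minus skin (352 of 525). The interaction of muscle and skin gave 12, but 93 with totals, and that of muscle and gills gave 10, but 5, 49, 5, 6 and 17 with totals, totals without miR-10, summed entries, 1 name per profile and DESeq2. Without 1 library, muscle season gave 38 (without summer 2) to 78 names, skin season 1 (without winter 2) to 3, and gill season 0 to 4. The 0 came without gills summer 3, 5 or 7, with 25, 34 and 33 names at an unadjusted edgeR p under 0.05. Without 1 fish the interaction of muscle and skin gave 5 (summer 3) to 17, and that of muscle and gills 4 (winter 4) to 24 (winter 3 or summer 4). The tissue comparisons and the interaction of skin and gills stayed within 1.5 times. Low reads limit miR-196d, and gill counts limit every minor name.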
